A study of Homo sapiens with 6 samples.

Results

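The genes described here are 9 genes of the p53 pathway and of cell cycle inhibition, *MDM2*, *CDKN1A*, *CDKN1B*, *CDKN1C*, *CDKN2A*, *CDKN2B*, *GDF15*, *SESN1* and *BTG2*. They were chosen by symbol, and all 9 were found among the 60663 genes of the deposited count table. CCD18Co, an established line of normal human colon fibroblasts, received, for 6 h, either an siRNA pool aimed at *LTBP2* (siLTBP2) or a non-targeting one (siNT), and cells were harvested for RNA at 48 h. Each group had 3 libraries, and both shared the cell line, the serum-containing medium and the lipid reagent. The comparison addresses whether silencing *LTBP2*, which codes for a secreted matrix protein, moved genes that mark an arrest of the cell cycle or senescence. It rests on 1 cell line and 1 siRNA pool, and nothing in the labels says that the libraries came from separate cultures, so the p-values measure the spread between libraries, which may be technical.

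The transcription factor p53 is stabilised by DNA damage and other stresses and turns on genes that stop the cell cycle, repair DNA or start apoptosis. Among its targets are *CDKN1A*, whose product p21 blocks cyclin-dependent kinases, and *MDM2*, whose product ubiquitinates p53 and so closes a negative feedback loop. Cyclin-dependent kinase inhibitors fall into a Cip/Kip family (*CDKN1A*, *CDKN1B*, *CDKN1C*) and an INK4 family (*CDKN2A*, *CDKN2B*, *CDKN2C*, *CDKN2D*) that acts on the kinases binding D-type cyclins. In cultured fibroblasts, high *CDKN1A* and *CDKN2A*, loss of *LMNB1* and a secretome rich in cytokines are commonly read as marks of senescence.

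Of the 9 genes, 1 changed. *CDKN1C* was 2.5-fold higher in siLTBP2, and for the other 8 genes no difference passed the test in the main fit. With the replicate number as a block, a fit given in the last section, *CDKN1B* and *GDF15* also passed. A gene is called changed at a Benjamini-Hochberg adjusted p below 0.05 in edgeR's quasi-likelihood test over the 16920 genes tested, and deregulated at an adjusted p below 0.01 with a fold change above 2, the thresholds of the study. Among all genes tested, 19.3% changed, 9.76% higher and 9.51% lower, and 2.57% were deregulated, 1.29% higher and 1.27% lower. Of the 9 genes, 11.1% changed, and the 1 gene that changed was also deregulated. A count of 1 among 9 genes is too small to set the share apart from either background. The median log2 fold change of the 9 genes was 0.11, against -0.01 over all genes tested.

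The libraries held between 44663424 and 53576899 counted reads. *LTBP2* itself was at 25.0, 23.1 and 21.2 CPM (counts scaled to library size, TMM-normalized) in siNT and 6.49, 8.61 and 6.00 CPM in siLTBP2, a fold of 0.304 (log2 fold change -1.72, 95% interval -2.04 to -1.39, edgeR adjusted p = 6.6e-05). The 10 fibroblast markers summed to 9960 to 13200 CPM in siNT and 10100 to 14400 CPM in siLTBP2. The 5 leukocyte markers summed to at most 0.574 CPM. The 8 epithelial markers summed to 40.3 to 52.8 CPM in siNT and 85.9 to 99.4 CPM in siLTBP2, with 6 of the 8 under 1 CPM in both groups and *EPCAM* at 0 counts in 5 of the 6 libraries. In siLTBP2 the keratin gene *KRT18*, which simple epithelia and some cultured mesenchymal cells express, was at 72.1 to 86.7 CPM. The 5 endothelial markers summed to 59.9 to 83.6 CPM over both groups, nearly all from *TEK*. The 5 smooth muscle markers summed to 96.6 to 115 CPM in siNT and 131 to 141 CPM in siLTBP2. Over the marker lists, *PDGFRB* (-0.60, edgeR adjusted p = 0.0025) was lower among 10 tested fibroblast genes, *KRT18* (1.15, 0.00024) and the smooth muscle gene *ACTG2* (0.57, 0.0056) were higher, and 0 of the 3 tested endothelial and leukocyte genes passed. The part of these shifts in the results below was not tested.

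p53 binds DNA as a tetramer, at a pair of half-sites of 10 bases. The pairs shown are the matches to such a site found near 4 of the 9 genes. Start sites were searched within 3000 bases on either side for 2 abutting half-sites with an intact C and G core in each and at most 2 mismatches elsewhere. Such a pair lay near 4 of the 9 genes and near 17 of the 43 scanned genes of a list of other p53 targets, against 4.6% of the 12484 protein-coding genes tested here. In GRCh38 the pairs lie on the plus strand at chr6:36676449-36676468 (*CDKN1A*, starting at base -2265 from the canonical start), chr12:68808923-68808942 (*MDM2*, at base 746, within the gene), chr19:18385308-18385327 (*GDF15*, at base -850) and chr1:203303642-203303661 (*BTG2*, at base -1877). The *GDF15* pair also lies within its annotated gene, upstream of the canonical start. The *CDKN1A* pair overlaps the first annotated bases of its gene. The capitals mark the pair, with 5 bases on each side in lower case.
CDKN1A: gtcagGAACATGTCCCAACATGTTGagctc
MDM2: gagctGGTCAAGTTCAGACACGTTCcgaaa
GDF15: attgcCATCTTGCCCAGACTTGTCTcgaac
BTG2: gggtcACGCATGTTCAGGCATGCATggaat
Each of the 4 pairs has 2 mismatches. No pair of this kind was found in the windows of *SESN1* or of the other 4 genes. In promoters of 300 bases, half-sites without mismatch were also searched. Each of the 8 genes with an entry, all but *CDKN1C*, had 0, while 6.54% of the 27305 promoters scanned held any. A match is a description of the letters and no measure of binding.

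Levels between genes were compared per kilobase of exon, as CPM per kb (GENCODE 44). The length was that of all annotated exons of a gene together, 9255 bases for *CDKN1B* and 3885 for *CDKN2A*. It may exceed the length of the transcripts present, so the order of the genes depends on this choice. Lengths of single transcripts were not tried. In siNT, *CDKN1A* was the most abundant of the 9 at 252 ± 19.5 CPM per kb, followed by *MDM2* at 39.6 ± 2.19 (SD, n = 3). *BTG2* (13.2 ± 2.75 CPM per kb) and *CDKN2A* (11.6 ± 0.81) came next and overlapped in their spread. *CDKN2B* (5.83 ± 0.76 CPM per kb), *CDKN1B* (5.09 ± 0.37), *GDF15* (3.63 ± 2.08) and *SESN1* (3.58 ± 0.20) followed, each overlapping its neighbour in this order within 1 SD. *CDKN1C* was the lowest at 0.436 ± 0.082 CPM per kb. Among all genes tested, 0.68% had a higher CPM than *CDKN1A* in siNT and 2.65% a higher CPM than *MDM2*.

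**Figure D1:**
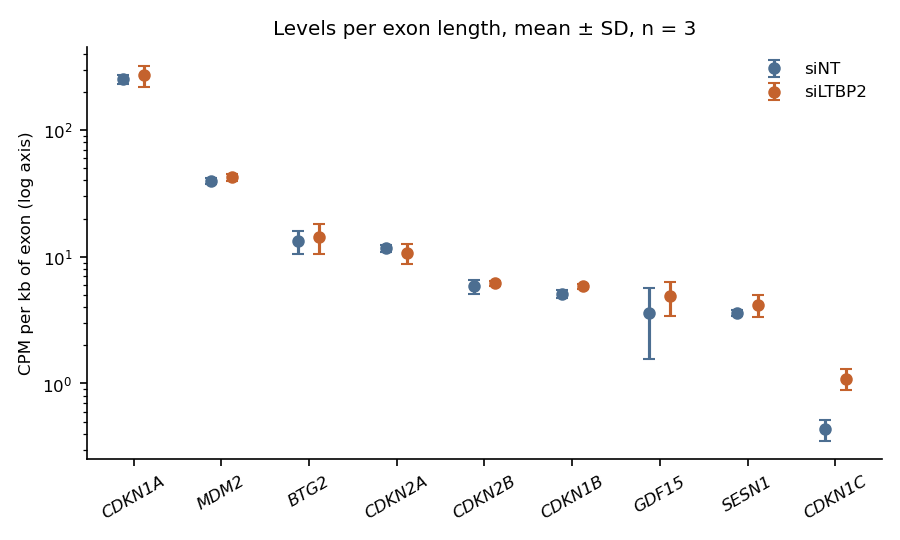
Mean level of each of the 9 genes in siNT (blue) and siLTBP2 (orange), in CPM per kb of exon on a log axis, with bars of 1 SD (n = 3 libraries). The levels run from 252 CPM per kb for *CDKN1A* to 0.436 for *CDKN1C* in siNT, and the groups separate visibly at *CDKN1C*.

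*CDKN1C* (ENSG00000129757) codes for p57, a Cip/Kip inhibitor and the product of an imprinted gene read mainly from the maternal copy. In GRCh38 it spans 2883213 to 2885775 of chromosome 11 (minus strand), with 4 exons in its canonical transcript. It had 59, 54 and 47 counts in siNT and 139, 130 and 115 in siLTBP2. As CPM these are 1.28, 1.09 and 0.872 in siNT and 3.19, 2.75 and 2.18 in siLTBP2, so that every siLTBP2 library lay above every siNT library. The mean rose from 1.08 ± 0.20 to 2.71 ± 0.50 CPM (SD, n = 3). The log2 fold change was 1.32 (SE 0.23, 95% interval 0.83 to 1.82, edgeR adjusted p = 0.0026). The exact permutation test gave a two-sided p = 0.1, the smallest that 3 libraries against 3 allow. Groups without overlap were found in 37.0% of the genes tested, 18.7% with siLTBP2 above.

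When each library in turn was dropped, *CDKN1C* stayed changed, at log2 fold changes between 1.19 and 1.46 (adjusted p-values 0.001 to 0.015). It no longer met the stricter threshold of 0.01 without siNT replicate 2 (adjusted p = 0.015) or siLTBP2 replicate 2 (adjusted p = 0.012). Even after the rise it was the lowest of the 9 genes per length, at 1.09 ± 0.20 CPM per kb in siLTBP2. With a bulk measurement, more cells that express the gene and more RNA per cell cannot be told apart.

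Of 7 listed neighbours of *CDKN1C* in the imprinted region 11p15.5, 5 were tested, of which 0 were higher, 2 were lower and 3 did not pass. The list also holds *IGF2* and *H19* and is not limited to the domain of *CDKN1C*. Among all genes tested, 9.76% were higher and 9.51% lower. The median log2 fold change of the 5 was 0.21, and the 3 that did not pass were above 0. *SLC22A18*, a transporter gene, was at 19.5, 17.4 and 18.6 CPM in siNT and 12.8, 13.6 and 10.4 CPM in siLTBP2 (log2 fold change -0.59, edgeR adjusted p = 0.0077). *KCNQ1OT1*, the long noncoding RNA whose transcription silences the domain of *CDKN1C* on the paternal copy, was at 40.5, 65.3 and 35.1 CPM in siNT and 33.5, 27.3 and 27.6 CPM in siLTBP2. Its siNT replicate 2 stood above the other libraries. Its log2 fold change of -0.67 (adjusted p = 0.037) went to -0.36 without siNT replicate 2 (adjusted p = 0.091), and its call was also lost without siLTBP2 replicate 2 (0.12) or siLTBP2 replicate 3 (0.058). *PHLDA2* had a log2 fold change of 0.34 (adjusted p = 0.11).

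**Figure D2:**
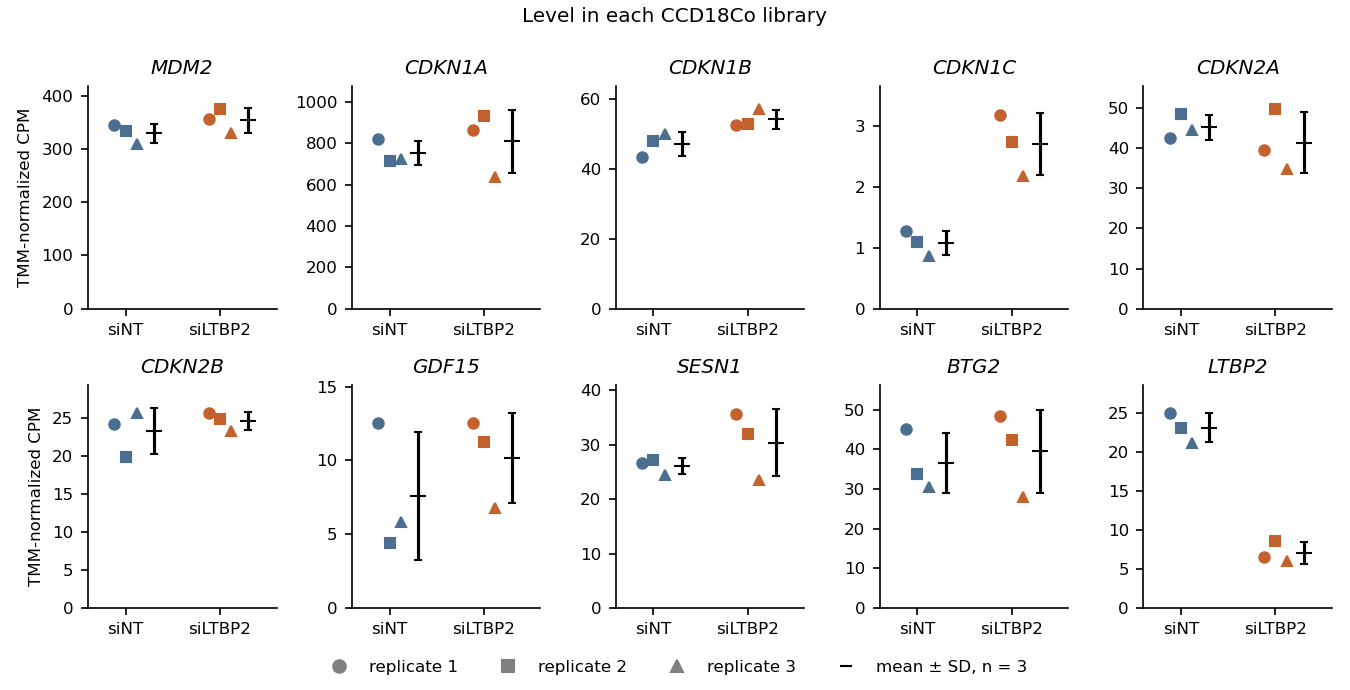
TMM-normalized CPM of the 9 genes and of *LTBP2* in each library, from 0, with siNT in blue, siLTBP2 in orange, a marker shape for each replicate number and the mean ± SD beside each group (n = 3). The siLTBP2 libraries lie wholly above siNT for *CDKN1C* and, by a small margin, *CDKN1B*, and the groups overlap for the other 7 of the 9 genes. Among all genes tested, 18.7% had every siLTBP2 library above every siNT library.

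Of the classical p53 targets among the 9, none passed the test (0 of 5). A count among 5 genes is too small to set apart from the 19.3% of all genes tested that changed. *CDKN1A* (ENSG00000124762, chromosome 6, 36676460 to 36687337, plus strand) was at 821, 715 and 725 CPM in siNT and 862, 930 and 637 CPM in siLTBP2. The highest and the lowest of the 6 values were both siLTBP2 libraries. The difference on the log2 scale was 0.10 (SE 0.14, adjusted p = 0.66), and the 95% interval ran from 0.87-fold to 1.33-fold. *MDM2* (ENSG00000135679, chromosome 12, 68808177 to 68845544, plus strand) was at 345, 333 and 309 CPM in siNT and 356, 375 and 329 CPM in siLTBP2. The log2 fold change was likewise 0.10 (SE 0.09, adjusted p = 0.47, 95% interval 0.935-fold to 1.24-fold). The interval of each of these genes leaves out a change of 1.5-fold. The exons of *MDM2* overlap those of the opposite-strand gene of carboxypeptidase M. That gene held 304 counts in the siNT libraries together and 579 in the siLTBP2 libraries together. *MDM2* held 15511 to 17751 counts in each single library.

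*BTG2* (ENSG00000159388, chromosome 1, 203305491 to 203309602, plus strand) codes for an antiproliferative protein that promotes removal of mRNA poly(A) tails. It was at 45.0, 33.7 and 30.6 CPM in siNT and 48.3, 42.2 and 28.0 CPM in siLTBP2, again with a siLTBP2 library at each end of the range. The log2 fold change was 0.11 (95% interval -0.31 to 0.54, adjusted p = 0.73). *SESN1* (ENSG00000080546, chromosome 6, 108984309 to 109094846, minus strand) codes for a sestrin, a stress-induced inhibitor of mTORC1 signalling. It was at 26.6, 27.1 and 24.4 CPM in siNT and 35.6, 32.0 and 23.6 CPM in siLTBP2. In 2 of the 3 siLTBP2 libraries it was above every siNT library and in replicate 3 below them all. The log2 fold change was 0.22 (95% interval -0.09 to 0.53, adjusted p = 0.31), and without siLTBP2 replicate 3 it was 0.38 (adjusted p = 0.028), which passed.

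*GDF15* (ENSG00000130513, chromosome 19, 18374731 to 18389176, plus strand) codes for a secreted stress cytokine of the TGF-beta superfamily that both p53 and the integrated stress response turn on. It varied most within groups, with a pooled SD of 0.65 on the log2 scale, and 2.75% of the genes tested had a larger one. It was at 12.5, 4.38 and 5.82 CPM in siNT and 12.6, 11.3 and 6.76 CPM in siLTBP2. The siNT replicate 1 lay with the higher siLTBP2 libraries. The log2 fold change was 0.43 (95% interval -0.33 to 1.19, adjusted p = 0.44), an interval that reaches from below 0 to beyond a 2-fold rise. Without siNT replicate 1 it was 0.99 (adjusted p = 0.03), which passed.

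Among the remaining inhibitors, *CDKN1B* (ENSG00000111276, chromosome 12, 12685498 to 12722369, plus strand), coding for p27, was at 43.4, 47.9 and 50.1 CPM in siNT and 52.4, 52.7 and 57.2 CPM in siLTBP2. The groups did not overlap, as in 37.0% of the genes tested. The log2 fold change of 0.20 (95% interval 0.00 to 0.40) had an unadjusted p of 0.049 in the quasi-likelihood fit and an adjusted p of 0.15. *CDKN2A* (ENSG00000147889, chromosome 9, 21967752 to 21995301, minus strand) codes for p16 and, in another reading frame, for ARF, which inhibits MDM2. Counts per gene do not separate the transcripts of these proteins. It was at 42.5, 48.6 and 44.5 CPM in siNT and 39.5, 49.7 and 34.9 CPM in siLTBP2 (log2 fold change -0.13, 95% interval -0.41 to 0.15, adjusted p = 0.53). It was the only one of the 9 with a log2 fold change below 0. *CDKN2B* (ENSG00000147883, chromosome 9, 22002903 to 22009305, minus strand), coding for p15, a known target of TGF-beta signalling, was at 24.3, 19.9 and 25.7 CPM in siNT and 25.7, 24.9 and 23.4 CPM in siLTBP2 (log2 fold change 0.08, 95% interval -0.17 to 0.33, adjusted p = 0.68).

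*CDKN2A* shares exonic bases with the antisense gene *CDKN2B-AS1*. Whether reads were counted by strand is not given, and reads of the 2 genes may then not be told apart. *CDKN2B-AS1* held 1346 counts in the siNT libraries together and 1068 in siLTBP2 (log2 fold change -0.27, adjusted p = 0.39). Of its neighbours on chromosome 9, *DMRTA1* fell by 1.94 on the log2 scale (adjusted p = 0.00014) and *MTAP*, a methionine salvage enzyme gene, rose by 0.28 (adjusted p = 0.038). *MTAP* lost its call with any 1 library left out. The INK4 genes outside the 9 had log2 fold changes of 0.29 (*CDKN2C*, adjusted p = 0.048) and -0.25 (*CDKN2D*, adjusted p = 0.15), and *CDKN2C* likewise lost its call in each case (adjusted p-values 0.056 to 0.19).

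**Figure D3:**
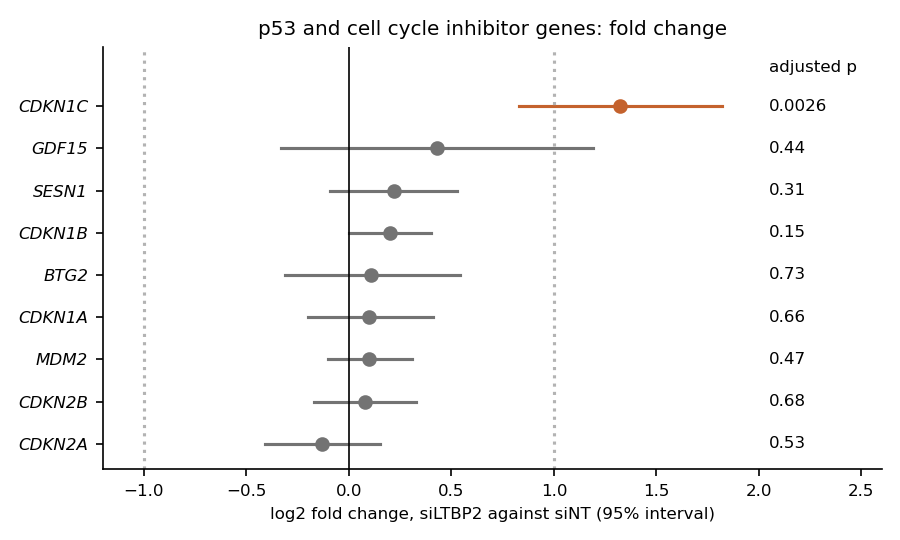
Log2 fold change of siLTBP2 against siNT for each of the 9 genes with its 95% interval from edgeR's quasi-likelihood fit and the adjusted p at the right (orange, adjusted p below 0.05). Dotted lines mark a 2-fold change. *CDKN1C* stands at 1.32, and the intervals of the other 8 reach or cross 0, widest for *GDF15* (-0.33 to 1.19).

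Within siLTBP2, most of the 9 genes were lowest in the same library, a pattern that was not the comparison of the groups. In siLTBP2, replicate 3 was the lowest library for 8 of the 9, *CDKN1B* being the exception, and for 31 of 44 other p53 target genes, against 38.9% of all genes tested. In siNT, replicate 1 was the highest for 5 of the 9 and for 21 of the 44, against 33.4% of all genes. Replicate 3 was also the lowest siNT library for *MDM2*, *CDKN1C*, *SESN1* and *BTG2*, but not for the rest of the 9. The deviation of siLTBP2 replicate 3 from its group mean was -0.33 for *CDKN1A*, -0.35 for *SESN1*, -0.46 for *BTG2* and -0.54 for *GDF15* on the log2 scale. It was -0.29 for *CDKN1C* and -0.23 for *CDKN2A*, but -0.10 for *MDM2*, -0.08 for *CDKN2B* and 0.08 for *CDKN1B*. With siLTBP2 replicate 3 left out, the log2 fold changes became 0.25 for *CDKN1A* (adjusted p = 0.16), 0.16 for *MDM2* (0.35), 0.32 for *BTG2* (0.17) and 0.66 for *GDF15* (0.18), and *SESN1* alone was added to *CDKN1C* as changed. Over the 6 libraries, the genes of at least 10 CPM whose log2 CPM followed *CDKN1A* most closely were *SEMA4F* (Pearson r = 0.987), *DCTN3* (0.983) and *PRKAR1B* (0.977). For *MDM2* they were *PLIN3* (0.991), *RAVER2* (0.982) and *ZC3H6* (0.982). These are the highest of many correlations over 6 libraries and only describe the order of the libraries.

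Of 45 other p53 target genes, 44 were tested. They included genes of apoptosis, DNA repair and survival, and 9 were higher, 3 lower and 32 did not pass, so that 27.3% changed against 19.3% of all genes. Their median log2 fold change was 0.10. The genes that rose were *RPS27L*, a ribosomal protein paralog, *TP53INP1*, the apoptosis genes *BAX*, *PMAIP1* (NOXA) and *APAF1*, the ceramidase gene *ACER2*, the kinase gene *PLK3*, the growth factor gene *KITLG* and the translesion polymerase gene *POLH*. *BAX*, whose product permeabilises the outer mitochondrial membrane, was at 126, 112 and 124 CPM in siNT and 195, 166 and 158 CPM in siLTBP2 (log2 fold change 0.52, adjusted p = 0.005). *PMAIP1* was at 20.2, 29.5 and 28.8 CPM in siNT and 35.7, 46.9 and 69.3 CPM in siLTBP2 (0.95, adjusted p = 0.012). *TP53INP1* was at 50.7, 55.5 and 40.6 CPM in siNT and 97.2, 104 and 73.3 CPM in siLTBP2 (0.90, adjusted p = 0.002). Each of these separated the groups fully, as 37.0% of all genes tested did, and stayed below a 2-fold change.

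The genes that fell were *NINJ1*, *LIF* and *TP53I3*. *NINJ1*, coding for a protein of plasma membrane rupture, went from 63.2, 50.8 and 62.5 CPM in siNT to 9.96, 12.3 and 11.1 CPM in siLTBP2 (log2 fold change -2.40, edgeR adjusted p = 5.4e-06). *LIF*, a cytokine of the interleukin 6 family, went from 165, 183 and 182 CPM to 55.8, 73.5 and 67.5 CPM (-1.43, adjusted p = 3.5e-05). *TP53I3*, a quinone oxidoreductase gene, changed by -0.52 (adjusted p = 0.0051). Of the 12 changed p53 targets, 10 kept their call with any 1 library left out. *KITLG* lost it without siNT replicate 1 or siNT replicate 2, and *POLH* without any of siNT replicates 2 and 3 and siLTBP2 replicates 1 and 2.

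*NINJ1* and *LIF* share a 7-base word of the 3′ UTR, GCACCCA, that *LTBP2* also carries. The 1455 genes tested with this word in the canonical 3′ UTR had a median of -0.15 on the log2 fold change scale, and the 10859 without it one of 0.02. The origin of the word is not given, and it may rest on earlier results of these data. The medians are therefore a description, and a role of the word was not tested. None of the 9 genes holds the word there (0 of 9), against 11.8% of the genes tested that have a 3′ UTR. The sites are shown with 9 bases on each side, the word in capitals, from the GENCODE 44 transcripts.
LTBP2: tgggatacaGCACCCAtctacaaag
NINJ1: ggggtcccaGCACCCActtttctaa
LIF: cctgcccctGCACCCAgcatgctcc
The 3 other listed p53 targets with the word had log2 fold changes between -0.04 and 0.10, and 0 of them passed.

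Of the regulators of p53, *HIPK2*, a kinase gene, was at 3018, 2582 and 2523 CPM in siNT and 1681, 1777 and 1712 CPM in siLTBP2 (log2 fold change -0.65, edgeR adjusted p = 0.0024). Its groups were fully apart, as in 37.0% of all genes tested. *HIPK2* stayed lower in every fit that dropped a library. *RCHY1*, a ubiquitin ligase gene, had a log2 fold change of 0.35 (adjusted p = 0.034) and *ATR*, a kinase of the DNA damage checkpoint, one of 0.24 (0.044), and both lost their calls when single libraries were left out.

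The genes on which the inhibitors act, and genes of dividing cells, were read next. Among 18 genes of G1 cyclins, their kinases and the RB family, 7 were higher, 2 lower and 9 did not pass. *CDK2*, a main target of p21, p27 and p57, was at 38.6, 51.9 and 54.0 CPM in siNT and 64.1, 75.4 and 83.7 CPM in siLTBP2 (log2 fold change 0.63, adjusted p = 0.0098). *CCND1*, coding for cyclin D1, went from 1384 ± 239 to 1893 ± 67.7 CPM (SD, n = 3; 0.45, adjusted p = 0.035), a call lost when single libraries were left out. *E2F5* was at 3.68, 3.85 and 4.73 CPM in siNT and 7.25, 7.55 and 9.74 CPM in siLTBP2 (1.00, adjusted p = 0.0023). *CCND2*, coding for cyclin D2, had only 5, 3 and 2 counts in siNT and 30, 38 and 19 in siLTBP2 (adjusted p = 0.0016). Of the 9 calls in this list, 3 were kept with any 1 library left out.

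Of 25 proliferation genes, 16 were higher, 0 were lower and 9 did not pass, so that 64.0% changed. Of all genes tested, 19.3% changed, 9.76% higher. The median log2 fold change of the 25 genes was 0.38. *PLK1*, a mitotic kinase gene, was at 82.3, 87.2 and 101 CPM in siNT and 176, 175 and 186 CPM in siLTBP2 (0.99, adjusted p = 0.00011). *E2F7*, itself a p53-responsive repressor of the cell cycle, was at 42.4, 37.9 and 57.3 CPM in siNT and 109, 101 and 134 CPM in siLTBP2 (1.32, adjusted p = 0.00031). *TPX2*, a spindle factor gene, had a log2 fold change of 0.66 (adjusted p = 0.00041). *MKI67*, the gene of the Ki-67 antigen, was at 489, 433 and 451 CPM in siNT and 700, 563 and 524 CPM in siLTBP2 (0.38, adjusted p = 0.045), a call lost when single libraries were left out. Of the 16 calls, 10 were kept with any 1 library left out.

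The genes read as marks of senescence moved in both directions. *LMNB1*, coding for lamin B1, which declines in senescent fibroblasts, was at 62.5, 74.8 and 72.6 CPM in siNT and 124, 128 and 119 CPM in siLTBP2 (log2 fold change 0.82, adjusted p = 0.00023), so it rose. *HMGB2* had a log2 fold change of 0.40 (adjusted p = 0.094) and *HMGB1* one of 0.01 (adjusted p = 0.96), whose sign turned with total-count scaling. Of 26 secretome genes, 21 were tested, 4 were higher, 5 lower and 12 did not pass. Here 42.9% changed, against 19.3% of all genes tested. *IL6*, the cytokine most used as a mark of this secretome, fell from 25.0, 32.4 and 32.7 CPM in siNT to 6.40, 7.91 and 9.54 CPM in siLTBP2 (-1.91, adjusted p = 5.7e-05). *IGFBP3*, an IGF-binding protein gene, went from 215.5 ± 22.1 to 69.2 ± 3.87 CPM (SD, n = 3; -1.64, adjusted p = 1e-05). *STC1*, *PLAUR*, *ANGPTL4* and *MMP1* rose, with log2 fold changes of 1.51, 1.47, 2.62 and 1.00. Of the 9 calls, *CXCL1* lost its own when single libraries were left out.

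**Figure D4:**
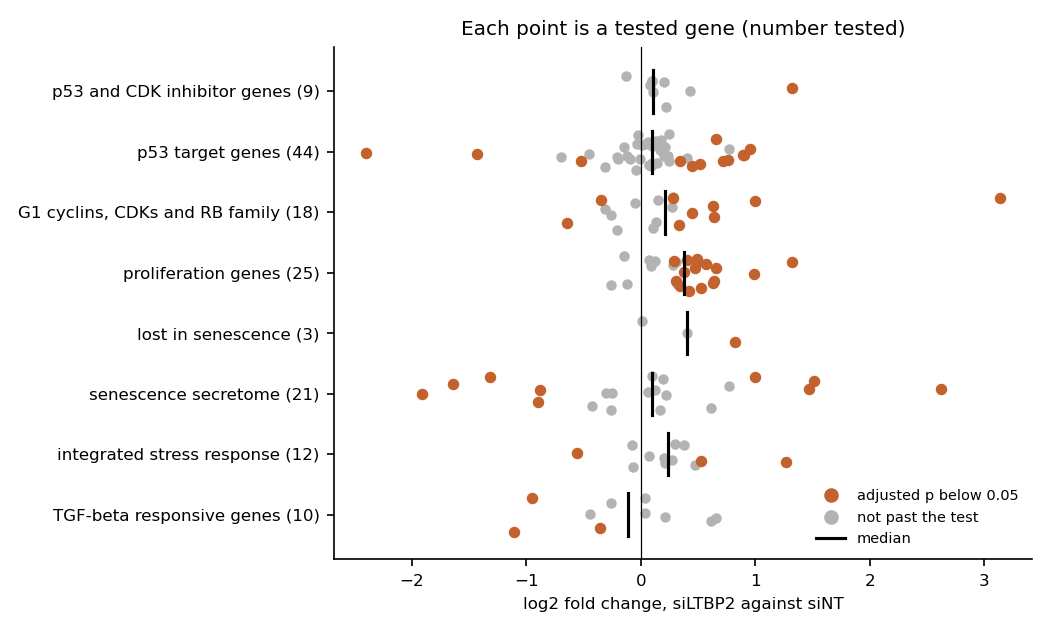
Log2 fold change of siLTBP2 against siNT for each tested gene of 8 lists, with the number tested in brackets, genes with an adjusted p below 0.05 in orange, the others in grey and a black bar at the median. Proliferation genes lie mostly to the right (median 0.38), while p53 targets centre near 0 (median 0.10) with *NINJ1* at -2.40.

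Lists tied to single genes of the 9 gave the following. Of 12 genes of the integrated stress response, 2 were higher, 1 lower and 9 did not pass. The share changed was 25.0%, near the 19.3% of all genes tested. *VLDLR* had a log2 fold change of 1.27 (adjusted p = 0.00075) and *CHAC1*, a glutathione-degrading enzyme gene, one of 0.53 (0.006), while *ATF3*, a transcription factor gene of the same response, changed by -0.56 (0.022, lost when single libraries were left out). Of the sestrins outside the 9, *SESN2* had a log2 fold change of -0.09 (adjusted p = 0.63), and *SESN3*, with at most 12 counts in a library, was not tested. Of 4 tested genes of the BTG and TOB family, *TOB2*, an antiproliferative relative of *BTG2*, went from 148, 111 and 119 CPM to 55.5, 51.3 and 49.1 CPM (-1.28, adjusted p = 7.5e-05), *BTG1* rose (0.50, adjusted p = 0.0093), and *TOB1* had 0.22 (0.14). Of 10 genes that respond to TGF-beta, 0 were higher and 3 lower (*SMAD6*, *PMEPA1* and *SKIL*), of which *SMAD6* alone passed in every fit that dropped a library (-0.95 over all libraries, adjusted p = 0.00039). *GDF11*, a relative of *GDF15*, changed by -0.63 (adjusted p = 0.00056), and *INHBA* by 0.12 (0.69).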

How the data were processed

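Ribosomal RNA was removed from total RNA of 6 CCD18Co libraries before stranded library preparation. The authors aligned the reads with STAR 2.7.1a to GRCh38, and the deposited values are raw counts per gene from HTSeq 0.11.2, with no normalization. The sources used here give neither the Ensembl release nor the strand setting. In the table, 27067 of 60663 genes had no read.

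The 16920 genes passing filterByExpr were scaled with TMM and fitted in edgeR 4.0.16 (R 4.3.3) by glmQLFit and glmQLFTest, two-sided, without a block, and p-values were adjusted over all of them by Benjamini-Hochberg. The glmLRT of the study and DESeq2 1.42.0 were alternatives. The standard error (SE) is the log2 fold change divided by the root of F, and intervals cover 95%. CPM per kb used summed exon lengths of GENCODE 44, which holds 60462 of the identifiers, 95.7% with the same start. Replicates differed beyond sampling noise (chi-square over its degrees of freedom 28.01 to 55.05).

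The 9 genes and all lists were chosen with earlier results of these data known. Named genes were the 9, *LTBP2*, every deregulated gene of a list and the 3 tested genes of lowest adjusted p in each list. The other changed p53 targets, *MKI67*, *CCND1*, *ATR*, *CXCL1*, *SESN3* and *EPCAM* were named after their values were seen. A regulator gene, and the counts of its list, are not reported here.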

Additional observations from a re-analysis of the deposited data

How the results depend on the processing

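*CDKN1C* and *LTBP2* kept their direction and call under all alternatives run, namely glmLRT with and without the filter, DESeq2, scaling by RLE, upper quartile or total counts, no filter, at least 1 CPM in 3 libraries, the replicate block and leaving out each library. Scaling moved the median of all genes by at most 0.038 on the log2 scale. The cause of the changes below was not tested.

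Deviations from the group means correlated at 0.298, 0.083 and 0.428 between libraries of the same number and at -0.391 to 0.103 between others. The siNT replicate 2 correlated at 0.103 with siLTBP2 replicate 1 and at 0.083 with siLTBP2 replicate 2. Whether libraries of the same number were paired is therefore not settled, and the main fit has no block. With the replicate number as a block, *CDKN1B* (log2 fold change 0.20, adjusted p = 0.032) and *GDF15* (0.499, adjusted p = 0.011) passed, so 3 of the 9 genes were higher. The block called 6131 genes changed, 3109 higher and 3022 lower, with 336 deregulated lower, and 16 p53 targets higher and 7 lower. Without a filter 680 genes were deregulated, 356 of them lower, and 6 p53 targets were lower, and glmLRT without a filter gave 332 deregulated lower. A test against a fold of 1.5 called 326 genes, 171 higher and 155 lower. *HMGB1* was at -0.002 without a filter (also with glmLRT) and at -0.031 with total counts.

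Without 1 library, log2 fold changes lay between -0.013 and 0.252 for *CDKN1A*, -0.021 and 0.159 for *CDKN2B*, -0.054 and 0.315 for *BTG2*, 0.152 and 0.987 for *GDF15*, 0.094 and 0.378 for *SESN1*, -0.397 and 0.005 for *CDKN2B-AS1*, -0.109 and 0.089 for *HMGB1*, and -0.139 and 0.242 for *INHBA*. The genes changed numbered 2158 to 2781 and those higher 1042 to 1449, with 137 to 201 deregulated higher. The lower p53 targets numbered 3 to 5, and 1 to 2 of the 9 genes were higher. Over the 62 other list genes named, 61 calls were lost, 19 were gained and 7 values changed sign across all alternatives, 0 of those 7 in a changed gene. Depth limits genes of few counts such as *CCND2*.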
